A study of Mus musculus with 3 samples.

Results

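Ddah1 and 7 other genes of arginine and nitric oxide metabolism (Ddah2, Nos2, Arg1, Arg2, Ass1, Asl and Prkg1) were compared in cardiac myofibroblasts, the fibroblasts that contract and lay down matrix in an injured heart, before, during and after loss of attachment. These genes were selected on the same arrays described here. Ddah1 was chosen because its signal was among those that fell furthest in suspension and came back on re-adhesion, and the others because they act in the same pathway, with these results known, so their values are a description with no test. The 8 genes had 10 probes on 20 spots, and 7 of the 8 were well above background on at least 1 array, among 15393 genes that were.

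The cells came from infarcted hearts of male C57BL/6J mice, taken 3 days after the left anterior descending coronary artery had been tied off for good. The labels give the age as 8 weeks in one field and as 10 weeks at surgery in another. In all 3 groups the digested cells had first attached to plastic overnight and had been depleted of cells carrying CD45, a leukocyte surface protein, and no genotype or drug differed between groups. Adherent cells were then kept on plastic for about a week, non-adherent cells were adherent cells moved on to low-attachment plates for another week, and re-adherent cells were non-adherent cells put back on plastic. Each group had 1 array, hybridised with RNA mixed from several hearts, which leaves no measure of biological spread, and no p-value is given. The states followed each other, so state and time in culture cannot be told apart, and most cells did not survive suspension per the methods of the study, so selection among cells cannot be told apart from change within them.

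Nitric oxide is made from arginine by the nitric oxide synthases, which free asymmetric dimethylarginine inhibits. Some of the protein arginine methyltransferases put that mark on proteins, proteolysis frees it, and dimethylarginine dimethylaminohydrolases such as DDAH1 break it down. Arginases compete for the same arginine, argininosuccinate synthase and lyase rebuild it from citrulline, and nitric oxide acts largely through soluble guanylate cyclase, cGMP and the cGMP-dependent protein kinases.

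The promoters of Ddah1 and its paralog Ddah2 are shown because these genes encode related enzymes and their signals parted in suspension. Both windows are from RefSeq, assembly GRCm38.p6, forward strand, and run from 250 bases before the annotated start to 50 after it. The Ddah1 window is chr3:145758442-145758741 and the Ddah2 window is chr17:35058785-35059084. Capitals mark GGAATG, the core of the site bound by TEAD factors, searched on both strands.

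Ddah1: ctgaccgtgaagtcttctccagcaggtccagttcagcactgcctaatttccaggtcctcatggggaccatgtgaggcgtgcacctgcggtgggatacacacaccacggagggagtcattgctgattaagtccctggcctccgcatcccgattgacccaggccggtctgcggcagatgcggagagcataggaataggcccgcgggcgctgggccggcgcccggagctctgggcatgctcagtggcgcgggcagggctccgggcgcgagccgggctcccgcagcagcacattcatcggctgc

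Ddah2: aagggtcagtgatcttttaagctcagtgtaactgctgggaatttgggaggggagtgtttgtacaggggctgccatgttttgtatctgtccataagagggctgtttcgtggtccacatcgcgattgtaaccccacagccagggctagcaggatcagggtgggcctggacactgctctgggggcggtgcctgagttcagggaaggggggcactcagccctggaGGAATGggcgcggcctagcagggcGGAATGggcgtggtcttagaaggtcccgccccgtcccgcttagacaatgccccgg

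GGAATG was found 2 times in the Ddah2 window, at 29 and 5 bases before the start, and not in the windows of Ddah1, Ass1 or Prkg1. Of all 32851 promoter windows of this length, 14.7% held it. Neither the AP-1 site (TGANTCA, found in 7.81% of all windows) nor the CArG box bound by SRF (1.63%) occurred in the windows of these 4 genes, and no GGAATG match overlapped either motif. The Ddah1 window was 65.7% G and C with 23 CG dinucleotides, and the Ddah2 window 59.7% with 12, against medians of 52.7% and 7. A match is a description of letters and says nothing on binding. Nos2, Arg1, Arg2 and Asl had no window in the table used.

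Ddah1 RNA, which encodes the hydrolase that clears asymmetric dimethylarginine, was bright on plastic, dim in suspension and bright again after re-adhesion. Its probe with 10 spots gave a mean processed signal of 6549 intensity units in adherent cells, 53.5 in non-adherent cells and 6321 in re-adherent cells. Single spots ranged from 6047 to 6763, from 42.1 to 62.4 and from 5788 to 6528 in that order. The non-adherent spots lay far below all others, while those of the adherent and re-adherent arrays overlapped before scaling. After each array was scaled to its 75th percentile, the log2 difference was −7.04 (SD 0.15 over 10 spots, technical error 0.22) for non-adherent minus adherent cells, a 132-fold fall. The rise on re-adhesion was 7.26 (SD 0.17, technical error 0.22), or 153-fold. These SDs are over repeated spots of 1 array pair and hold no biological variation. In bulk RNA of this kind, fewer cells of a type and less RNA per cell cannot be told apart.

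A second Ddah1 probe with 1 spot gave 4976 intensity units in adherent, 61.8 in non-adherent and 5656 in re-adherent cells. It fell by 6.43 and rose by 6.88 on the log2 scale, less than the values of the 10-spot probe but with the same course. The dimmest Ddah1 spot of the non-adherent array, at 42.1, stood above the lowest signal called well above background there, 14.0. The loss is therefore a measured value, although one that depends on how the background is treated: with the normexp correction it fell by 5.85 and rose by 6.05 on the log2 scale.

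**Figure D1:**
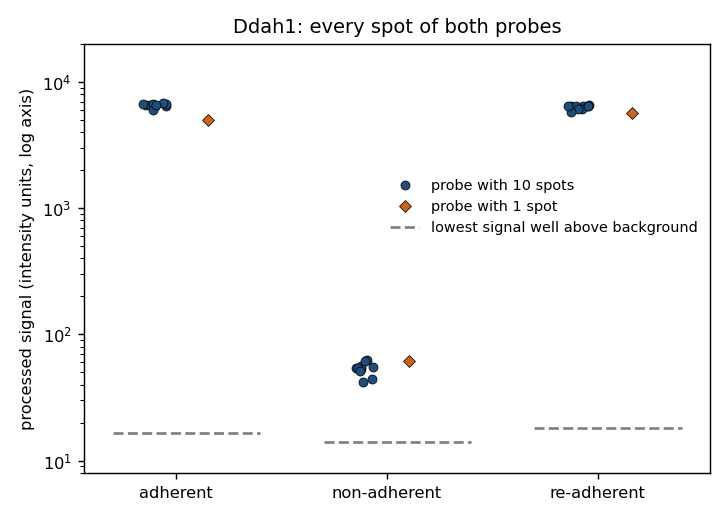
Processed signal of every Ddah1 spot (intensity units, log axis) in the 3 states. Circles are the 10 spots of one probe, diamonds the 1 spot of the other, and dashed lines the lowest signal well above background. The non-adherent circles lie between 42.1 and 62.4, and those of the other arrays between 5788 and 6763.

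The Ddah1 signal of re-adherent cells lay near that of adherent cells. The log2 difference between re-adherent and adherent cells was 0.21 with a technical error of 0.20. Over the 10 spots this difference ran from 0.13 to 0.26 (SD 0.05), and it was 0.45 for the second probe. Its sign depended on the scaling, since it was −0.26 after scaling to the spike-in controls and −0.05 with no scaling. By the smaller of its fall and its rise, Ddah1 stood at rank 6 of the 13475 genes well above background on all 3 arrays. Its fall and its rise both passed 16-fold, which held for 124 of the 15393 genes (0.806%), Ddah1 included. This rank is what the choice of Ddah1 rested on.

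Among the genes nearest to Ddah1 in the plane of its differences from the adherent array were Scel, Myl9, Acta1 and Acta2, with Euclidean distances from 0.20 to 0.49 on the log2 scale over 3 arrays. Scel encodes sciellin, and its log2 differences were −6.93 in suspension and 7.32 on re-adhesion. Myl9 encodes a regulatory light chain of smooth muscle myosin, with −6.80 and 6.64. Acta1 and Acta2 encode skeletal and smooth muscle α-actin, the second the usual marker of myofibroblasts. Their falls were 7.32 and 6.64, and their rises 7.15 and 6.57, on the log2 scale.

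Ddah2, the paralog, did not share this course. Its signal was 7857 intensity units in adherent, 8738 in non-adherent and 10772 in re-adherent cells. The non-adherent minus adherent log2 difference was 0.06 and the re-adherent minus non-adherent difference 0.67, each with a technical error of 0.20. The re-adherent array was highest, yet the difference from the adherent array, 0.72, stayed within 2-fold and was 0.24 after spike-in scaling.

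Nos2, the inducible nitric oxide synthase, was above background on every array and showed no difference past 2-fold. Its probe with 2 spots gave 670, 612 and 722 intensity units in adherent, non-adherent and re-adherent cells. The log2 differences were −0.23 in suspension, 0.60 on re-adhesion and 0.37 between the plastic cultures, where spike-in scaling turned the sign to −0.11. Subtracting the local median, that of the difference between the arrays over neighbouring spots, turned the difference in suspension to 0.13.

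Arg1, the cytosolic arginase, which macrophages in a repair state also make in quantity, ran opposite to Ddah1. Its signal was 2675 intensity units in adherent cells, 9684 in non-adherent cells and 369 in re-adherent cells, so the non-adherent array was highest and the re-adherent array lowest. Arg1 rose 3.38-fold in suspension (log2 1.76) and fell 20.4-fold on re-adhesion (log2 −4.35). It was the one member past 2-fold between re-adherent and adherent cells, 6.04-fold lower (log2 −2.59, technical error 0.20). Arg2, the mitochondrial arginase, did not stand well above background on any array, at 8.07, 15.8 and 4.57 intensity units, so no fold is given.

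**Figure D2:**
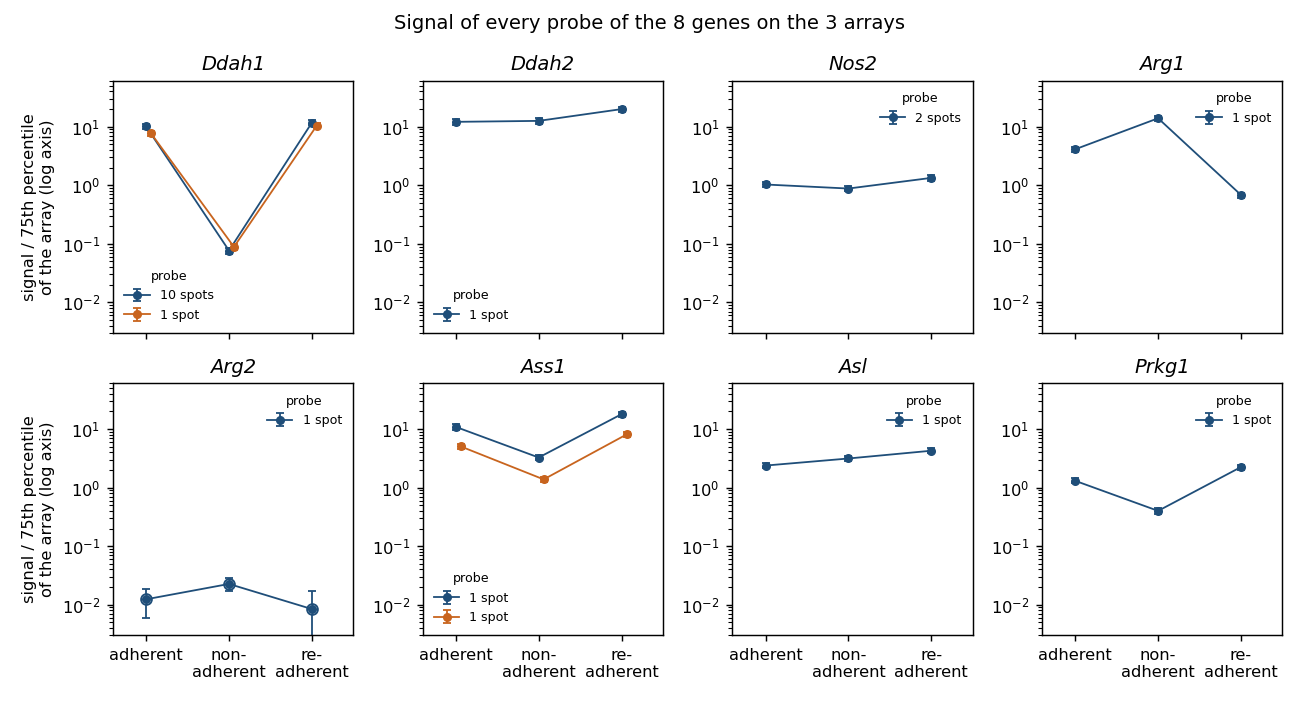
Signal of every probe of the 8 genes, divided by the 75th percentile of its array (log axis), in the 3 states. Bars are the technical error within the array, and large markers are values not well above background. Ddah1, Ass1 and Prkg1 dip in suspension, Arg1 peaks there, and Arg2 lies near the bottom on all 3 arrays.

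Ass1 and Asl, argininosuccinate synthase and lyase, act one after the other in rebuilding arginine from citrulline, which is also the product of DDAH1. Ass1 gave 7062 intensity units in adherent cells, 2271 in non-adherent cells and 9682 in re-adherent cells. It fell 3.33-fold in suspension (log2 −1.73) and rose 5.49-fold on re-adhesion (log2 2.46). The second Ass1 probe gave −1.87 and 2.55, which differed from the first by less than the technical error of 0.20. Asl gave 1546, 2185 and 2301 intensity units on the same arrays. Its log2 differences, 0.40 in suspension and 0.44 on re-adhesion, stayed within 2-fold, so the lyase did not follow the synthase.

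Prkg1, the type I cGMP-dependent protein kinase, resembled Ass1 in size and direction. Its signal was 849 intensity units in adherent, 279 in non-adherent and 1213 in re-adherent cells. Prkg1 fell 3.25-fold in suspension (log2 −1.70) and rose 5.59-fold on re-adhesion (log2 2.48). Between re-adherent and adherent cells Ass1 and Prkg1 differed by 0.72 and 0.78 on the log2 scale, within 2-fold, and by 0.24 and 0.30 after spike-in scaling.

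Counted together, 3 of the 7 measured members (Ddah1, Ass1 and Prkg1) were over 2-fold lower in suspension, where 14.7% of all genes were, and 1 (Arg1) was over 2-fold higher, where 17.2% were. On re-adhesion the same 3 were over 2-fold higher, against 15.6% of all genes, and Arg1 over 2-fold lower, against 16.3%. In re-adherent compared with adherent cells, 1 member was over 2-fold lower and 0 higher, against 4.90% and 4.84% of all genes. The members were picked with these arrays known, so nothing is read from the counts. The median log2 difference of the 7 was −0.23, 0.67 and 0.72 in these comparisons, and that of all genes −0.07, 0.08 and 0.06. With spike-in scaling the all-gene medians became −0.28, −0.19 and −0.41, so small differences between arrays hold only relative to the scaling. The same 3 and 1 member passed 2-fold in suspension with every scaling tried.

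**Figure D3:**
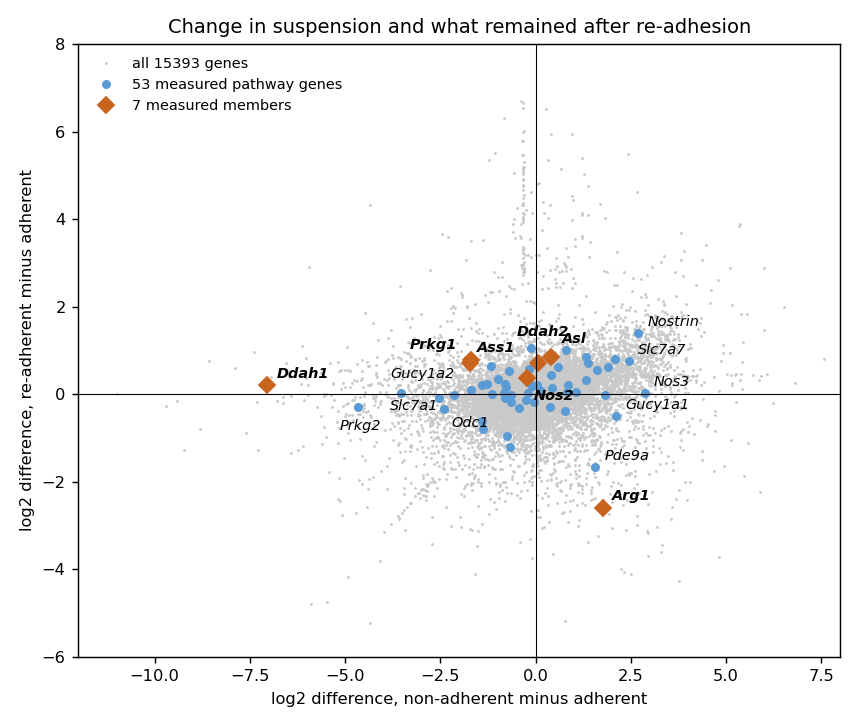
Each point is a gene, with its log2 difference in suspension (non-adherent minus adherent) on the horizontal axis and the difference left after re-adhesion (re-adherent minus adherent) on the vertical axis. Grey points are all 15393 genes, blue circles the 53 measured pathway genes and orange diamonds the 7 measured members. Ddah1 lies at −7.04 and 0.21, and Arg1 at 1.76 and −2.59.

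Beyond these 8, 62 genes of the surrounding pathway were listed in 6 groups, and 53 were measured. In suspension 13 of the 53 (24.5%) were over 2-fold lower and 13 (24.5%) higher, beside 14.7% and 17.2% of all genes. The split was 17 lower and 12 higher with spike-in scaling, and 9 and 16 with the local median subtracted. On re-adhesion 12 (22.6%) were lower and 14 (26.4%) higher, a split that became 16 lower and 9 higher with no scaling, and 13 lower and 10 higher with either spike-in scaling or the authors' values. Over all genes the split on re-adhesion was 2504 lower and 2398 higher, and 3598 and 1524 with no scaling. Between re-adherent and adherent cells 2 were lower (Slc7a3 and Pde9a) and 3 higher (Nostrin, Gamt and Pde1c). Pde1c was not well above background in adherent cells and only at least 1.81-fold higher, so 2 of the 3 were shown to pass 2-fold. This split became 5 and 0 with spike-in scaling, 4 and 1 with no scaling, and 3 and 1 with the authors' values. Over all genes, 754 were lower and 745 higher in that comparison, and 1913 and 349 with spike-in scaling.

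Of the 9 measured genes of arginine transport and the other nitric oxide synthases, 1 (Slc7a1) fell over 2-fold in suspension and 3 rose. These 3 were Slc7a7, Nos3 and Nostrin, and of all genes 14.7% fell and 17.2% rose over 2-fold. Slc7a1 encodes CAT-1, the main importer of arginine in many cells, and gave 17936 intensity units in adherent, 4397 in non-adherent and 14581 in re-adherent cells. Its fall was 4.37-fold (log2 −2.13) and its rise 4.27-fold (log2 2.09). Slc7a7, an exchanger of cationic amino acids that works with Slc3a2, gave 1955, 11397 and 2738 intensity units and rose 5.45-fold (log2 2.45) before falling 3.23-fold. Slc3a2 itself stayed within 2-fold, at 0.44 and −0.29 on the log2 scale. Nos1 was on no array well above background.

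Nos3, the endothelial nitric oxide synthase, gave 348 intensity units in adherent, 2711 in non-adherent and 294 in re-adherent cells. It rose 7.28-fold in suspension (log2 2.86, and 3.98 for its second probe) and fell 7.17-fold on re-adhesion (log2 −2.84, and −4.58 for the second probe). Nostrin, which encodes a protein that guides NOS3 away from the membrane, gave 69.4, 479 and 152 intensity units and rose 6.45-fold (log2 2.69, and 1.80 with normexp). Its fall on re-adhesion, −1.29 on the log2 scale, became −0.95 with normexp. It was still 2.63-fold above the adherent level in re-adherent cells (log2 1.40), a difference within 2-fold with spike-in scaling (0.92) and with normexp (0.85). Slc7a2 also fell on re-adhesion, by 1.16 on the log2 scale, while Nosip and Nos1ap stayed within 2-fold in every comparison.

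Tetrahydrobiopterin is a cofactor that all nitric oxide synthases need, and 3 of its 6 genes (Gch1, Pts and Qdpr) were over 2-fold higher in suspension, beside 17.2% of all genes. Gch1, the rate-limiting enzyme of its synthesis, gave 2669 intensity units in adherent, 7194 in non-adherent and 2791 in re-adherent cells, a rise of 1.33 on the log2 scale. Pts, the next enzyme, rose by 1.06 and Qdpr, which recycles the cofactor, by 1.31. Spr, the last enzyme of synthesis, was at −0.69 in suspension and rose 2.34-fold on re-adhesion. None of the 6 differed over 2-fold between re-adherent and adherent cells.

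Of 7 measured arginine methyltransferases, only some of which form the substrate of DDAH1, 2 (Prmt1 and Carm1) were over 2-fold lower in suspension. Over 2-fold higher were 0, and of all genes 14.7% were lower and 17.2% higher. Prmt1, the main enzyme for asymmetric dimethylarginine, gave 43551, 19174 and 42741 intensity units in adherent, non-adherent and re-adherent cells. Its fall was 2.43-fold (log2 −1.28) and its rise 2.87-fold (log2 1.52). With the local median subtracted the first became −0.92, within 2-fold. Carm1 fell by 1.15 and rose by 1.16 on the log2 scale. Prmt7 passed 2-fold on re-adhesion by 1 probe (1.03) but not by its other probe (0.51). The list's median was −0.80 in suspension and 0.96 on re-adhesion, against −0.07 and 0.08 for all genes. Agxt2, another enzyme that consumes dimethylarginine, was on no array well above background.

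Of the genes that join arginine to ornithine, proline and creatine, 7 of 11 were measured. Cps1, Otc and Nags, the urea cycle genes of the liver, were not well above background on any array. Aldh18a1, which makes the shared precursor of proline and ornithine, gave 1050, 420 and 1014 intensity units and fell 2.67-fold in suspension (log2 −1.42), then rose 3.11-fold (log2 1.63). Prodh, the first enzyme of proline breakdown, also fell (log2 −1.39). Gatm, the first enzyme of creatine synthesis, rose 3.03-fold in suspension (log2 1.60) and fell 2.06-fold on re-adhesion.

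Of 11 measured polyamine genes, 2 (Odc1 and Srm) fell in suspension and 3 (Smox, Paox and Sat1) rose, beside 14.7% and 17.2% of all genes. Odc1, ornithine decarboxylase, which draws on the ornithine that arginase releases, gave 18097, 3671 and 12005 intensity units in adherent, non-adherent and re-adherent cells. It fell 5.28-fold (log2 −2.40) and rose 4.21-fold (log2 2.07, and 1.46 with the local median subtracted), and Srm, spermidine synthase, fell 3.24-fold and rose 3.45-fold. Sms, spermine synthase, was at 0.13 and −0.06 on the log2 scale. Smox, spermine oxidase, gave 1767, 7996 and 2559 intensity units and rose 4.23-fold (log2 2.08) before falling 2.43-fold. Paox and Sat1, which also take polyamines back, rose 3.72-fold and 2.58-fold in suspension. No gene of this list differed over 2-fold between re-adherent and adherent cells.

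Among the 6 pathway lists, the cGMP list held the widest range of differences in suspension, with 5 of 13 measured genes over 2-fold lower in suspension (Gucy1a2, Gucy1b1, Pde3a, Prkg2 and Mrvi1) and 3 higher (Gucy1a1, Pde2a and Pde9a), beside 14.7% and 17.2% of all genes. The subunits of soluble guanylate cyclase, the nitric oxide receptor, parted. Gucy1a1, an α subunit, gave 827, 3817 and 487 intensity units in adherent, non-adherent and re-adherent cells, a 4.31-fold rise and a 6.09-fold fall. Gucy1a2, the other α subunit, gave 195, 18.2 and 166, an 11.4-fold fall (log2 −3.52, technical error 0.31) and an 11.7-fold rise (log2 3.55). With the normexp correction these were −1.78 and 1.87. Gucy1b1, the shared β subunit, fell 2.25-fold and rose 3.54-fold, in the direction of Gucy1a2.

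Prkg2, the type II kinase, gave 624 intensity units in adherent, 26.2 in non-adherent and 423 in re-adherent cells. It fell 25.5-fold (log2 −4.67, technical error 0.29) and rose 20.8-fold (log2 4.38), as Prkg1 did on a smaller scale. With the normexp correction these values were −2.81 and 2.58. Mrvi1, which encodes IRAG, a substrate of the type I kinase, gave 1447, 267 and 1139 intensity units, a 5.80-fold fall and a 5.49-fold rise. Its second probe gave a fall of 1.19 on the log2 scale, against 2.54 for the first, so the size depended on the probe. Pde9a, a phosphodiesterase with high affinity for cGMP, rose 2.98-fold in suspension, from 65.5 to 208 intensity units, but by 0.93 on the log2 scale, within 2-fold, with the normexp correction (main value 1.57). It was not well above background in re-adherent cells, at 17.3, and was at least 8.83-fold lower there than in suspension. This bound holds for the processed signal as scaled here, since the log2 difference of −3.23 became −1.26 with normexp. Such a bound divides the brighter scaled signal by the floor of the dim array, its lowest signal well above background, or by the probe's own signal where that is higher.

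**Figure D4:**
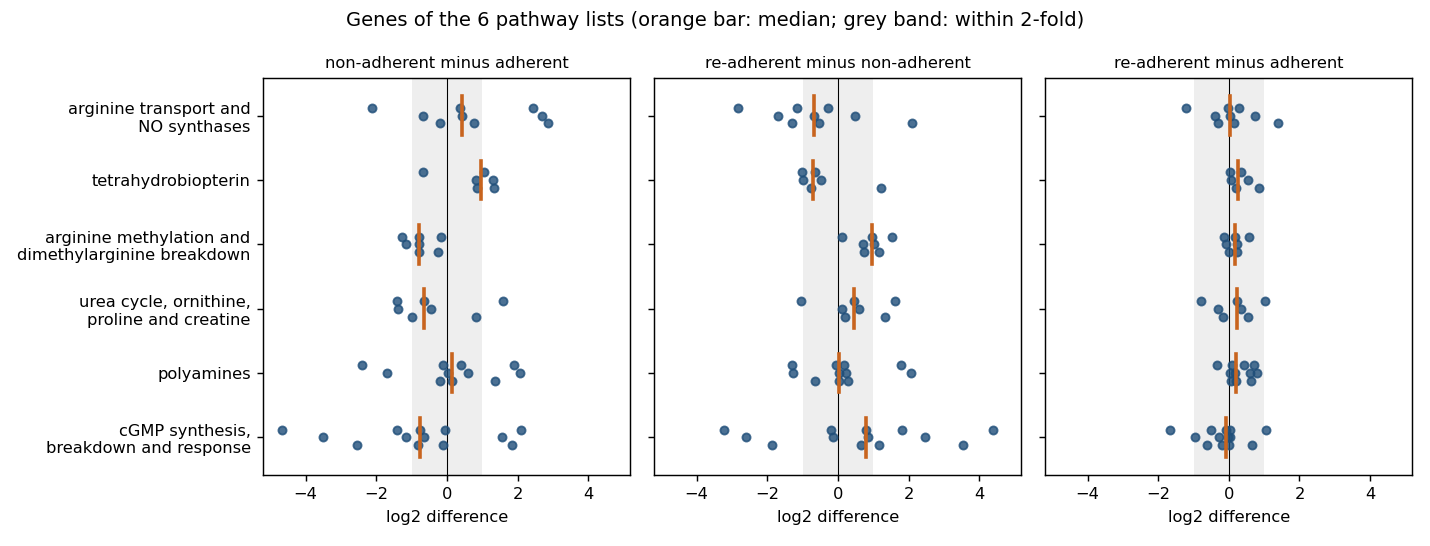
Log2 differences of the 53 measured pathway genes in the 3 comparisons between arrays, in rows by list. Each point is a gene, the orange bar is the median of its list and the grey band marks differences within 2-fold. In the cGMP list values run from −4.67 to 2.11 in suspension, and in the panel on the right 48 of the 53 points lie in the band.

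The labelled cell type was checked against markers. All 13 fibroblast and myofibroblast markers, among them Col1a1, Postn, Pdgfra and Thy1, were well above background on all 3 arrays, with summed levels of 2660, 1075 and 2587 times the 75th percentile in adherent, non-adherent and re-adherent cells. In suspension 5 of the 13 were over 2-fold lower, among them Acta2 (99.4-fold) and Tagln (63.1-fold), beside 14.7% of all genes. The 2 that were over 2-fold higher were Lum (11.8-fold) and Dcn (3.24-fold), beside 17.2% of all genes, and 6 stayed within 2-fold. Ptprc, which encodes the CD45 used for depletion, was nevertheless well above background throughout, at 355, 2441 and 532 intensity units. Of 16 measured macrophage markers, 15 were over 2-fold higher in suspension (median log2 difference 2.68), beside 17.2% of all genes. The summed level of these markers was 222, 1369 and 463. In non-adherent cells the macrophage sum, 1369 over 16 genes, was thus above the fibroblast and myofibroblast sum, 1075 over 13 genes. The lists hold different genes, so the sums do not give shares of cells. Cd163 did not pass background on any array, and Ccr2 passed it in suspension alone.

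These markers moved with several results above. Arg1 and Slc7a7, which macrophages express, rose in suspension, as did 15 of the 16 macrophage markers. Slc7a7 was at 2.45 in suspension, −1.69 on re-adhesion and 0.75 between re-adherent and adherent cells. The marker medians in these comparisons were 2.68, −1.57 and 0.88, and the Arg1 values 1.76, −4.35 and −2.59. Between re-adherent and adherent cells 7 of the 16 markers were over 2-fold higher and 0 lower, beside 4.84% and 4.90% of all genes. Nos2, also known from macrophages, stayed within 2-fold in every comparison. The part of macrophages in these results was not tested.

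Nos3, Nostrin and Gucy1a1 are known from vessel wall cells. Of 10 endothelial markers, 6 were over 2-fold higher in suspension, among them Cdh5 (log2 2.94) and Cldn5 (3.77), and 1 was lower. Over all genes 17.2% were higher and 14.7% lower. The summed level of the list was 37.3, 42.5 and 39.5. Most of this sum came from its brightest genes, Kdr, Eng and Egfl7, at log2 levels of 3.86, 3.79 and 2.79 in adherent cells. Eng fell in suspension (log2 −1.39), while the probes of Kdr disagreed (−0.35 and 1.96). In re-adherent cells Tie1, Emcn and Cldn5 were not well above background. By their signals 6 of 10 markers lay over 2-fold below the adherent array, beside 4.90% of all genes. For 1 of these 6, Tie1, the bound is at least 1.71-fold. Nos3 differed from the adherent array by 0.02, and by −0.60 on its second probe. Vwf, also on the endothelial list, was at 2.49 in suspension, −2.58 on re-adhesion and −0.08 between re-adherent and adherent cells. The first Nos3 probe gave 2.86, −2.84 and 0.02. Smooth muscle and pericyte markers summed to 38.0, 59.2 and 36.4, mostly from Mcam (log2 levels 5.09, 5.79 and 5.10). Their median log2 difference was 0.66 in suspension, −1.05 on re-adhesion and −1.11 between re-adherent and adherent cells. The endothelial medians were 1.18, −2.67 and −1.77, and the Gucy1a1 values 2.11, −2.61 and −0.50. In suspension 3 of the 8 smooth muscle and pericyte markers (Myh11, Cspg4 and Des) were over 2-fold lower, beside 14.7% of all genes. The 2 that were over 2-fold higher, beside 17.2%, were Kcnj8 (at least 4.10-fold) and Abcc9 (at least 5.62-fold), both well above background in suspension alone. Myh11 was not well above background in suspension. Cardiomyocyte markers summed to 1.24, 2.04 and 3.37, mostly from Tnnt2 (log2 levels −0.13, 0.46 and 1.60). Ryr2, Pln and Ttn were not well above background on any array, nor were Actc1 and Tnni3 in re-adherent cells. Between re-adherent and adherent cells 2 of the 6 measured were over 2-fold lower by their signals and 2 higher. Over all genes 4.90% were lower and 4.84% higher. The part of these cells in the differences was not tested.

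**Figure D5:**
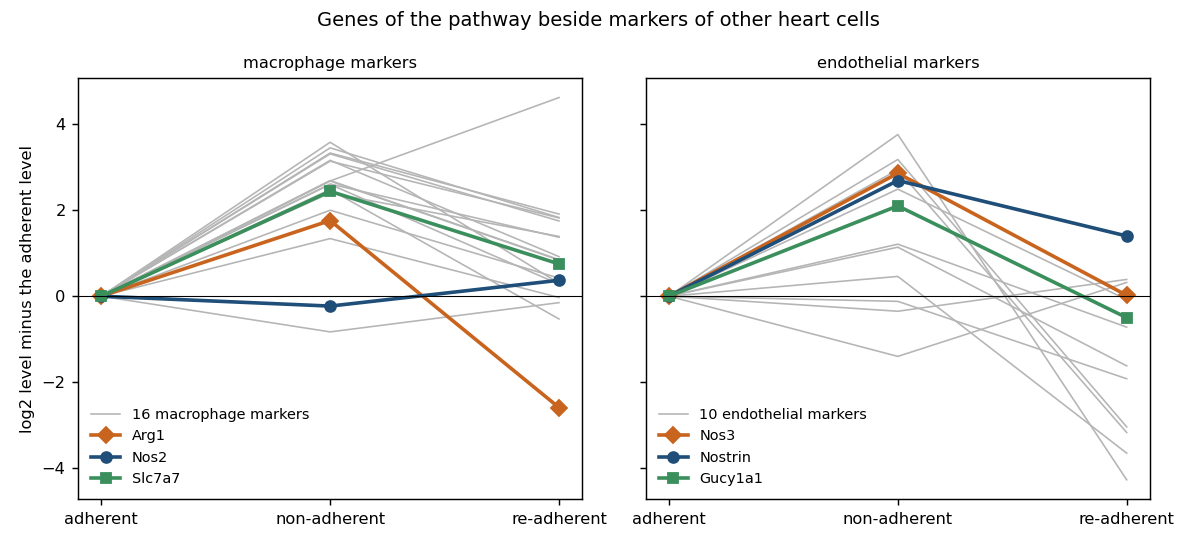
Log2 level minus the adherent level on each array, for Arg1, Nos2 and Slc7a7 beside 16 macrophage markers (left, grey) and for Nos3, Nostrin and Gucy1a1 beside 10 endothelial markers (right, grey). In re-adherent cells Arg1 ends at −2.59, below every macrophage marker, and Slc7a7 at 0.75. Nos3 ends at 0.02, above 8 of the 10 endothelial markers, the nearest of these being Vwf at −0.08. Tie1, Emcn and Cldn5 were not well above background there.

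Each array held 59305 non-control spots, of which 58.1%, 59.9% and 53.9% were well above background in adherent, non-adherent and re-adherent cells, and none was saturated. The number of arrays, 1 per state, limits the precision of every value given.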

How the data were processed

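Total RNA of adherent, non-adherent and re-adherent cardiac myofibroblasts, pooled from several hearts per state, was labelled with Cy3 and hybridised to 3 one-colour Agilent mouse arrays. The authors deposited scanner output of Agilent Feature Extraction 10.10.1.1, in which each spot has a background-subtracted processed signal, a linear intensity, with its error and flags. They also deposited a matrix of intensity values, equal to that signal times 1 constant per array (1.52, 1.52 and 1.62).

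Here the processed signal was divided by the 75th percentile of non-control spots on its array, then put on the log2 scale (the percentiles were 651, 697 and 541 intensity units in adherent, non-adherent and re-adherent cells). Flagged spots were left out (154, 180 and 175) and spots of a probe averaged. Symbols came from RefSeq GRCm38.p6 for 27235 of 55681 probes, and the array design rests on an earlier assembly, so no array coordinates are given. A gene was read by its brightest probe on average, if well above background on at least 1 array. The technical error joins the errors that the software gave to the spots compared and leaves out biological variation. With 1 array per group, differences past 2-fold are counted without a test.

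Members, gene lists, marker lists and the choice of promoters were made with earlier results of these data known. Named genes were all members, genes of the 6 pathway lists past 4-fold, the largest difference of each list and the 5 genes nearest Ddah1, and some of the genes this rule or the lists hold are not reported here. Other genes were named after their values were seen. The alternatives were no scaling, median centring, quantile normalization, spike-in scaling (6 probes), the authors' values, normexp (offset 50) in limma 3.58.1 under R 4.3.3, other filters, low signals raised to the floor, the mean over probes and subtraction of a local median. The normexp step used median foreground signals, because mean signals were not in the files used. Python 3.11.15, numpy 2.4.6 and pandas 2.3.3 were used, and the scripts were tested on simulated data.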

Additional observations from a re-analysis of the deposited data

How the results depend on the processing

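With 1 array per group, no alternative carries a test and leaving out a replicate was not possible. No paired analysis was possible because every state has a single array. The direction of every member past 2-fold was the same under all 11 alternatives. The fall of Ddah1 in suspension (main value −7.04) was −5.85 with the normexp correction, −6.74 as the mean over probes and −6.78 with the local median subtracted. Its rise (7.26) was 6.89 with no scaling, 6.99 with spike-in scaling, 6.98 with the authors' values, 6.05 with normexp and 6.80 with the local median subtracted. The re-adherent minus adherent difference (0.21) was −0.05, −0.26 and −0.01 with no scaling, spike-in scaling and the local median subtracted. With no filter, 2 members rather than 1 were over 2-fold lower on re-adhesion, the added one being Arg2, not well above background on any array. Pathway genes over 2-fold higher on re-adhesion numbered 9 with no scaling in place of 14. Between re-adherent and adherent cells, those lower (2) became 4 with no scaling, 5 with spike-in scaling, 0 with normexp and 1 with the filter on all 3 arrays. Those higher (3) became 1 with no scaling, the authors' values, normexp or the local median subtracted, 0 with spike-in scaling and 5 with no filter. The cause of these shifts was not tested. Signal over background limits Prkg2 and Gucy1a2 in suspension, at 26.2 and 18.2 intensity units against a lowest signal well above background of 14.0.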
